A study of Mus musculus with 6 samples.

Results

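The 8 mouse genes *Catsper1*, *Catsper2*, *Catsper3*, *Catsper4*, *Catsperb*, *Catsperd*, *Catsperg1* and *Catsperg2*, which encode subunits of the sperm calcium channel CatSper, were examined in RNA-seq of STRA8+ germ cells from the testis. They were taken by name from a table of 54532 genes, and all 8 were present in it. Their transcripts were compared between 3 Control libraries and 3 libraries of *Srsf1* conditional knockout (cKO) cells. The Control libraries carry the genotype label Cre and the cKO libraries the label *Srsf1* knockout, and all 6 are labelled as germ cells that are STRA8+. *Srsf1* encodes a splicing factor that binds pre-mRNA, and STRA8 marks germ cells that enter meiosis under retinoic acid. The Cre line, the *Srsf1* allele, the age of the mice, the number of mice behind a library and the method that isolated the cells are not given in the sources used here. Because nothing says that replicates came from separate animals, the p-values measure the spread between these libraries, which may be technical.

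CatSper is a calcium channel of the sperm tail that opens at alkaline internal pH and at depolarised voltage, and the calcium it admits drives the hyperactivated swimming that sperm need to fertilise an egg. CatSper1 to CatSper4 assemble as a tetramer around the pore, and the beta, gamma and delta subunits are transmembrane proteins with large extracellular parts that form a canopy above it. The genes are switched on late in the male germ line: *Catsper2* transcripts are known from spermatocytes onwards, while *Catsper1*, *Catsper3* and *Catsper4* are known chiefly from spermatids.

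Levels are given as FPKM, the fragments counted on a gene relative to its length and to the size of the library. The length is that of the deposited table, which is not always that of a transcript (7044 bases for *Catsperg1*, whose coding transcript has 3670), so a comparison of levels between genes holds on this scale. The number of fragments behind each value was recovered from the deposited FPKM. It came to between 15364511 and 17310353 per Control library and between 14447887 and 15326722 per cKO library. The targeted gene *Srsf1* was at 84.7, 45.2 and 51.9 FPKM in Control and at 5.08, 4.94 and 5.17 FPKM in cKO, in the direction of the labels (limma, adjusted p = 5.6e-05). *Stra8*, the gene behind the cell label, was present in every library, at 222.1 to 261.7 FPKM in Control and 242.1 to 312.7 FPKM in cKO. Control replicate 2 stood apart from Control replicates 1 and 3 in spermatid transcripts: the summed FPKM of 10 spermatid markers was 8391.1 in it and 2548.5 and 2500.0 in the others. Markers of somatic cells were mixed in Control replicate 2. Its 5 Leydig cell markers summed to 14.0 FPKM against 5.43 and 2.95 in Control replicates 1 and 3. Of these sums the gene *Insl3* gave 9.74, 2.14 and 0 FPKM, and the cKO libraries summed to 10.1, 6.34 and 10.7 FPKM. Its 7 Sertoli cell markers summed to 15.7 FPKM against 20.2 and 23.8 in Control replicates 1 and 3. Changes were tested with limma on log2(FPKM + 1) over the 15451 genes that averaged 1 FPKM or more over the 6 libraries, with an adjusted p of at most 0.05 taken as a call. Of these genes 3437 (22.2%) were called lower in cKO and 1821 (11.8%) were called higher. Under quantile normalisation the split was 2527 lower and 5164 higher.

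The RefSeq table of promoter windows for GRCm38.p6 held 8 windows for 6 of the 8 genes (*Catsper2*, *Catsper3*, *Catsper4*, *Catsperb*, *Catsperd* and *Catsperg1*), each reaching from 250 bases before a transcript start to 50 bases after it. The 250 bases before the start are shown for 4 genes, because they hold the most and the fewest CpG dinucleotides among the windows at a gene's own start and the motif matches found there. They are written 5′ to 3′ on the strand of the gene. Capitals mark matches, on either strand, to TGACG (the core of the cAMP response element, read as CGTCA on the other strand) or to AACTG (the core bound by MYB proteins, read as CAGTT on the other strand). *Catsper2* lies at chr2:121413793-121414042 on the minus strand, *Catsperd* at chr17:56627893-56628142 on the plus strand, *Catsper4* at chr4:134227384-134227633 on the minus strand and *Catsperb* at chr12:101404423-101404672 on the plus strand.
Catsper2: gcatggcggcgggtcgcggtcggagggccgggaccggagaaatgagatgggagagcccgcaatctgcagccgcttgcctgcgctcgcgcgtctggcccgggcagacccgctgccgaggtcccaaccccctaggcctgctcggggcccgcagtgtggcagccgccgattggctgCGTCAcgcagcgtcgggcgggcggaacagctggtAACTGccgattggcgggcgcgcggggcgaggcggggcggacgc
Catsperd: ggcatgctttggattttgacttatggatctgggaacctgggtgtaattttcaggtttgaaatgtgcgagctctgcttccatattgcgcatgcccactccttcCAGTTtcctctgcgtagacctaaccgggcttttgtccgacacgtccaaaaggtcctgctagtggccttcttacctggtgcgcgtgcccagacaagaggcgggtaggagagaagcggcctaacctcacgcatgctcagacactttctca
Catsper4: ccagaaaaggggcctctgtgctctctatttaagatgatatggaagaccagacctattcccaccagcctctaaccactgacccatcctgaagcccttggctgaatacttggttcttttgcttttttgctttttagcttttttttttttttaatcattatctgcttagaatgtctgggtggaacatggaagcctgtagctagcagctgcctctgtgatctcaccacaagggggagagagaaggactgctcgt
Catsperb: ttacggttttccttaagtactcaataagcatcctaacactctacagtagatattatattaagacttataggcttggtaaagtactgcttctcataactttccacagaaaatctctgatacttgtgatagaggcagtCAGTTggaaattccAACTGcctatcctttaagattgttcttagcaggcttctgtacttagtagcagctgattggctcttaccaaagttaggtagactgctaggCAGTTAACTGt

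The *Catsper2* window was the richest in CpG, with 41 in its 300 bases and a GC content of 74.7%, above the 69.7% that 10% of all 32851 mouse windows of that length exceed. The *Catsperb* window held 1 CpG and 38.0% GC, and the *Catsper4* window 2 CpG and 46.7% GC, against medians of 7 CpG and 52.7% GC over all windows. The *Catsper3* window held 3 CpG. Both *Catsperd* windows (12 CpG at the gene's start and 29 in the window upstream of it) and both *Catsperg1* windows (8 and 9) held more than the median. TGACG matched once in *Catsper2*, with its first base at position -77 from the start, and 3 times in the upstream *Catsperd* window (chr17:56626797-56627096), and it occurs in 20.8% of all windows. AACTG matched at 4 places in *Catsperb*, at -114, -100, -11 and -6, where the last pair adjoin on opposite strands. It matched once in *Catsper2*, once in the *Catsperd* window shown and once in the *Catsperg1* window at chr7:29210876-29211175, and it occurs in 44.8% of all windows. The windows of *Catsper3* and *Catsper4* and the *Catsperg1* window at chr7:29213984-29214283 held neither motif. These are matches of letters, with no binding measured.

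All 8 CatSper genes were called lower in cKO (limma, adjusted p between 2.9e-05 and 0.0011), where 22.2% of all genes tested were called lower. None was higher by limma, by limma-voom or at an unadjusted p under 0.05. The 3 cKO libraries lay below the 3 Control libraries for each of the 8, as they did for 28.6% of all genes tested. The median fitted change of the 8 was -2.15 on the log2(FPKM + 1) scale, against -0.01 over all genes tested. *Catsper1*, *Catsper3*, *Catsper4* and *Catsperb* had a cKO mean under 1 FPKM and passed the filter on low values through their Control libraries, so they could have passed it only if they were lower in cKO, and the count of 8 is a description. In RNA from a mixture of cells, fewer cells of a type and less RNA per cell cannot be told apart.

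**Figure D1:**
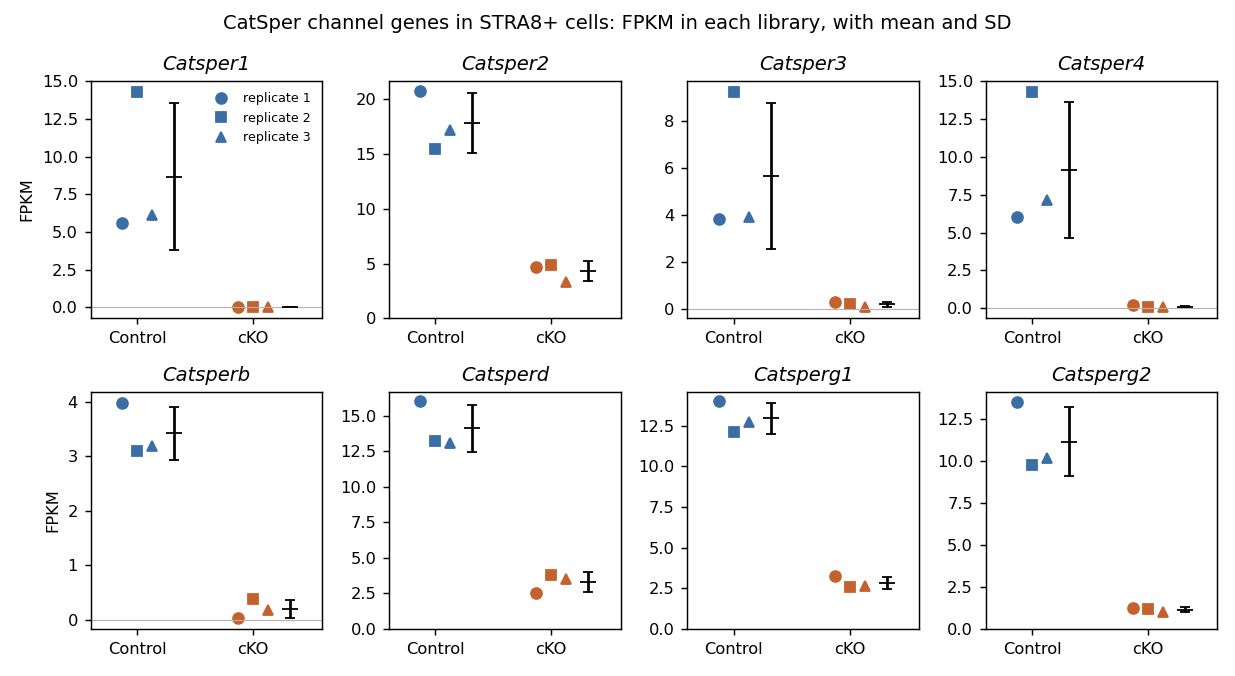
FPKM of each CatSper gene in the 3 Control (blue) and 3 cKO (orange) libraries, with a symbol for each replicate number and, beside them, the mean and SD (n = 3) in black. Every panel has its own axis from 0; all cKO points lie below all Control points, and the Control replicate 2 square lies far above the other Control points for *Catsper1*, *Catsper3* and *Catsper4* alone.

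Among the pore-forming subunits, *Catsper1* (ENSMUSG00000038498, chr19:5335741-5344153, plus strand), without which the channel does not form in sperm, was at 5.60, 14.3 and 6.11 FPKM in Control replicates 1, 2 and 3 and at 0 in all 3 cKO libraries. These values rest on 190, 452 and 218 fragments in Control and on no fragment in cKO, where 3 fragments, the most that a count of 0 allows, would be 0.0926 to 0.0994 FPKM per library. The transcript was thus detected in every Control library and in no cKO library. Against that limit the Control mean of 8.67 ± 4.89 FPKM (SD, n = 3) was at least 90.4-fold higher, and the fitted change was -3.16 ± 0.32 (SE) on the log2(FPKM + 1) scale (limma, adjusted p = 0.00037).

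*Catsper2* (ENSMUSG00000033486, chr2:121392631-121413792, minus strand), another pore subunit, was at 20.8, 15.5 and 17.2 FPKM in Control and at 4.72, 4.90 and 3.29 FPKM in cKO. It had the highest mean level of the 8 in both groups, and its cKO libraries remained well above detection. The mean fell from 17.8 ± 2.72 to 4.30 ± 0.879 FPKM (SD, n = 3), which left 24.2% of the Control level, with a fitted change of -1.83 ± 0.16 (SE) on the log2(FPKM + 1) scale (limma, adjusted p = 0.0002). Its exons share 18 bases with *Pdia3*, a protein disulphide isomerase gene on the opposite strand, whose level was 181.8 to 190.9 FPKM in Control and 178.6 to 184.2 FPKM in cKO.

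*Catsper3* (ENSMUSG00000021499, chr13:55784568-55808998, plus strand) was at 3.84, 9.25 and 3.91 FPKM in Control and at 0.281, 0.201 and 0.0483 FPKM in cKO. Control replicate 2 was again the highest, and the cKO values rested on 6, 4 and 1 fragments. The mean fell from 5.67 ± 3.11 to 0.177 ± 0.118 FPKM (SD, n = 3), and the ratio of pooled fragments, Control over cKO, was 31.3 with an exact 95% interval of 17.3 to 63.2 that covers counting error only. The fitted change was -2.41 ± 0.30 (SE) on the log2(FPKM + 1) scale (limma, adjusted p = 0.0011), the highest p of the 8.

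*Catsper4* (ENSMUSG00000048003, chr4:134211970-134227383, minus strand) was at 6.01, 14.3 and 7.13 FPKM in Control and at 0.182, 0.0650 and 0.0939 FPKM in cKO. It resembled *Catsper1* and *Catsper3* in that Control replicate 2 was the highest and the cKO libraries were nearly empty, with 6, 2 and 3 fragments. The mean fell from 9.15 ± 4.51 to 0.114 ± 0.0608 FPKM (SD, n = 3), and the ratio of pooled fragments was 78.3 (exact 95% interval 43.5 to 157.4, counting error only). The fitted change was -3.10 ± 0.29 (SE) on the log2(FPKM + 1) scale (limma, adjusted p = 0.00025).

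Among the auxiliary subunits, *Catsperb* (ENSMUSG00000047014, chr12:101404653-101626009, plus strand), which encodes the beta subunit and spans 221357 bases with 27 exons in its longest coding transcript, was at 3.99, 3.09 and 3.19 FPKM in Control and at 0.0346, 0.371 and 0.179 FPKM in cKO. It had the lowest mean of the 8 in Control, where its replicates lay close together, and the cKO libraries held 3, 30 and 15 fragments. The mean fell from 3.43 ± 0.491 to 0.195 ± 0.169 FPKM (SD, n = 3), which left 5.68% (3.11% without cKO replicate 2), with a fitted change of -1.89 ± 0.17 (SE) on the log2(FPKM + 1) scale (limma, adjusted p = 0.00021).

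*Catsperd* (ENSMUSG00000040828, chr17:56628143-56664456, plus strand), which encodes the delta subunit, was at 16.0, 13.2 and 13.1 FPKM in Control and at 2.54, 3.82 and 3.54 FPKM in cKO. Its cKO libraries kept a clear level, with the lowest in cKO replicate 1. The mean fell from 14.1 ± 1.67 to 3.30 ± 0.677 FPKM (SD, n = 3), which left 23.4%, with a fitted change of -1.82 ± 0.15 (SE) on the log2(FPKM + 1) scale (limma, adjusted p = 0.00014).

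The gamma subunit is encoded in the mouse by a pair of paralogous genes on chromosome 7. *Catsperg1* (ENSMUSG00000049676, chr7:29181321-29214035, minus strand) was at 14.0, 12.1 and 12.7 FPKM in Control and at 3.25, 2.59 and 2.65 FPKM in cKO, tightly grouped in both. Its mean fell from 12.9 ± 0.988 to 2.83 ± 0.366 FPKM (SD, n = 3), which left 21.9% (fitted change -1.86 ± 0.11 (SE) on the log2(FPKM + 1) scale, limma, adjusted p = 3.3e-05).

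*Catsperg2* (ENSMUSG00000049123, chr7:29697219-29727032, minus strand) was at 13.5, 9.76 and 10.2 FPKM in Control and at 1.25, 1.20 and 1.01 FPKM in cKO. Its Control range overlapped that of *Catsperg1*, whereas in cKO every library lay below every *Catsperg1* value. The mean fell from 11.2 ± 2.04 to 1.15 ± 0.127 FPKM (SD, n = 3), which left 10.3% (fitted change -2.49 ± 0.14 (SE) on the log2(FPKM + 1) scale, limma, adjusted p = 2.9e-05).

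The ratio of *Catsperg2* to *Catsperg1* was 0.963, 0.807 and 0.806 in Control and 0.384, 0.465 and 0.381 in cKO, without overlap between the groups. On the log2 scale the mean ratio was -0.22 ± 0.15 in Control and -1.29 ± 0.16 in cKO (SD, n = 3), a difference of -1.07 (exact permutation test, two-sided, p = 0.1, the smallest that 3 libraries against 3 allow). With 1 FPKM added to both values the difference was -0.62. The paralogs share sequence: of the 100-base windows in their annotated transcripts, 76.3% of *Catsperg1* and 75.2% of *Catsperg2* occurred in no other annotated gene, and 2201 windows occurred in both. How the counting treated fragments that match both is not given in the sources used here, so the separate values are uncertain to that extent. Summed over the pair, the level was 27.5, 21.9 and 22.9 FPKM in Control and 4.50, 3.79 and 3.66 FPKM in cKO, which left 16.5% of the Control mean. For *Catsper1*, *Catsper2*, *Catsper3*, *Catsper4* and *Catsperd* every 100-base window was found in no other gene, and for *Catsperb* 95.6% were.

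Ordered by mean FPKM in Control, the genes ran *Catsper2*, *Catsperd*, *Catsperg1*, *Catsperg2*, *Catsper4*, *Catsper1*, *Catsper3* and *Catsperb*, and the ranges of all neighbours in this order overlapped. In cKO the order ran *Catsper2*, *Catsperd*, *Catsperg1*, *Catsperg2*, *Catsperb*, *Catsper3*, *Catsper4* and *Catsper1*. There the ranges of neighbours did not overlap between *Catsperg1* and *Catsperg2* or between *Catsperg2* and *Catsperb*. *Catsper1* had no fragment, but its limit of 0.0926 to 0.0994 FPKM covers 2 of the 3 *Catsper4* values, so the order of the last 4 genes was not resolved. The first 4 places were held by the same genes in the same order of means in both groups. With the length of the coding transcript in place of the table's length, *Catsper2* was still the highest in both groups, but *Catsperg1* (24.8 and 5.43 in Control and cKO) came before *Catsperd* (19.8 and 4.63).

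The make-up of the channel transcripts is given by their sums and shares. The 4 pore-forming genes summed to 36.2, 53.3 and 34.3 FPKM in Control and to 5.18, 5.16 and 3.44 FPKM in cKO, and the 4 auxiliary genes summed to 47.5, 38.1 and 39.2 FPKM in Control and to 7.07, 7.99 and 7.38 FPKM in cKO. Both sums were lower in every cKO library than in any Control library, at 11.1% and 18.0% of their Control means. *Catsper2* made up 24.8%, 16.9% and 23.4% of the summed level of the 8 genes in Control and 38.5%, 37.2% and 30.5% in cKO, so that nearly all remaining pore-subunit RNA was *Catsper2*. *Catsper1*, *Catsper3* and *Catsper4* made up between 4.58% and 15.6% each in the Control libraries and at most 2.29% each in the cKO libraries. With transcript lengths the share of *Catsper2* was 19.6% to 26.3% in Control and 30.6% to 38.2% in cKO.

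**Figure D2:**
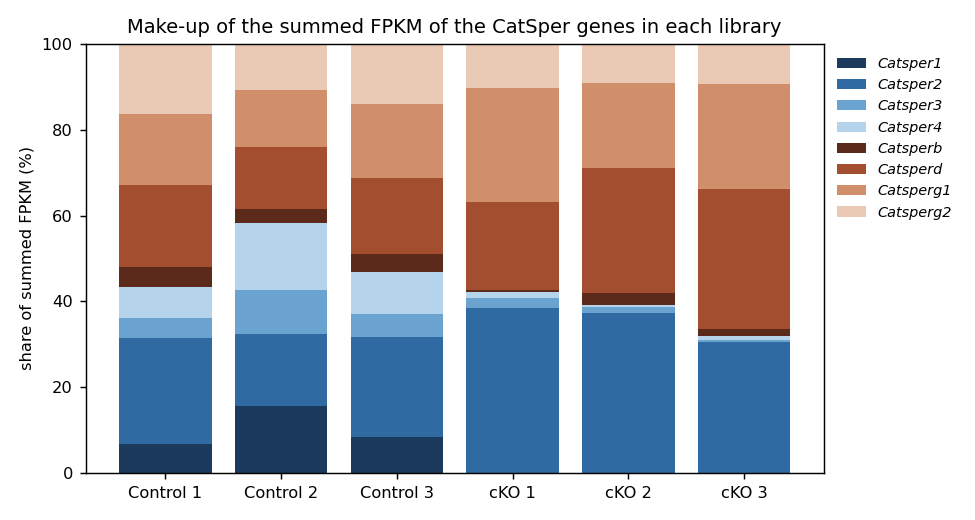
Share of each CatSper gene in the summed FPKM of the 8 genes (vertical axis, percent) in each library, with pore-forming genes in blue and auxiliary genes in brown. The *Catsper1*, *Catsper3* and *Catsper4* bands, which reach 15.6% in Control replicate 2, are at most 2.29% in the cKO libraries, where *Catsper2*, *Catsperd* and *Catsperg1* fill most of the bar.

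The share of the Control level that remained in cKO differed widely among the genes. *Catsper1* (0 fragments), *Catsper4* (1.24%), *Catsper3* (3.12%) and *Catsperb* (5.68%) kept the least, *Catsperg2* kept 10.3%, and *Catsperg1*, *Catsperd* and *Catsper2* kept 21.9%, 23.4% and 24.2%. The log2(FPKM + 1) scale compresses this range, because adding 1 understates the change of low genes: *Catsperb* at -1.89 and *Catsper2* at -1.83 have like fitted changes. With 0.1 in place of 1 the fitted changes were -3.75 for *Catsperb* and -2.03 for *Catsper2*, and they were -5.37 for *Catsper4*, -4.36 for *Catsper3* and -3.16 for *Catsperg2*. The 3 genes with 1 to 3 CpG in their promoter window (*Catsperb*, *Catsper4* and *Catsper3*) were at 5.68% of Control or less, and the 3 with 8 or more in every window (*Catsperg1*, *Catsperd* and *Catsper2*) were at 21.9% or more. The *Catsper2* window also covers the start of *Pdia3*, which was not called. This comparison of CpG and remaining level was made after the values had been seen, over 6 genes, and was not tested.

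The 3 Control libraries did not vary alike for all 8 genes. *Catsper1*, *Catsper3* and *Catsper4* were 2.44, 2.39 and 2.18 times as high in Control replicate 2 as in the mean of Control replicates 1 and 3. The other 5 genes were between 0.815 and 0.906 times as high there, and each was highest in Control replicate 1. Measured in the same way, the summed spermatid markers were 3.32 times as high in Control replicate 2, the pachytene spermatocyte markers 1.06 times and the early meiotic prophase markers 0.795 times. The spermatid and pachytene sums rest largely on the most abundant markers of each list. Single spermatid markers ranged from 1.06 to 3.65 times and single pachytene markers from 0.703 to 2.34 times, so the members of these lists overlapped. The Leydig cell markers were 3.33 times as high there, the peritubular markers 2.47 times, the macrophage and blood markers 1.66 times and the Sertoli cell markers 0.714 times. The Leydig value rests largely on *Insl3*, at 9.09 times, while *Star* was at 1.03 times. The rest of that list, at 2.55 to 4.4 times, had Control means under 1 FPKM. Whether the make-up of cells in that library had a part in the levels of *Catsper1*, *Catsper3* and *Catsper4* was not tested. Without Control replicate 2, all 8 genes were still called lower, and the fitted changes were -2.78 for *Catsper1*, -2.05 for *Catsper3* and -2.76 for *Catsper4*, and between -2.57 and -1.86 for the other 5.

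**Figure D3:**
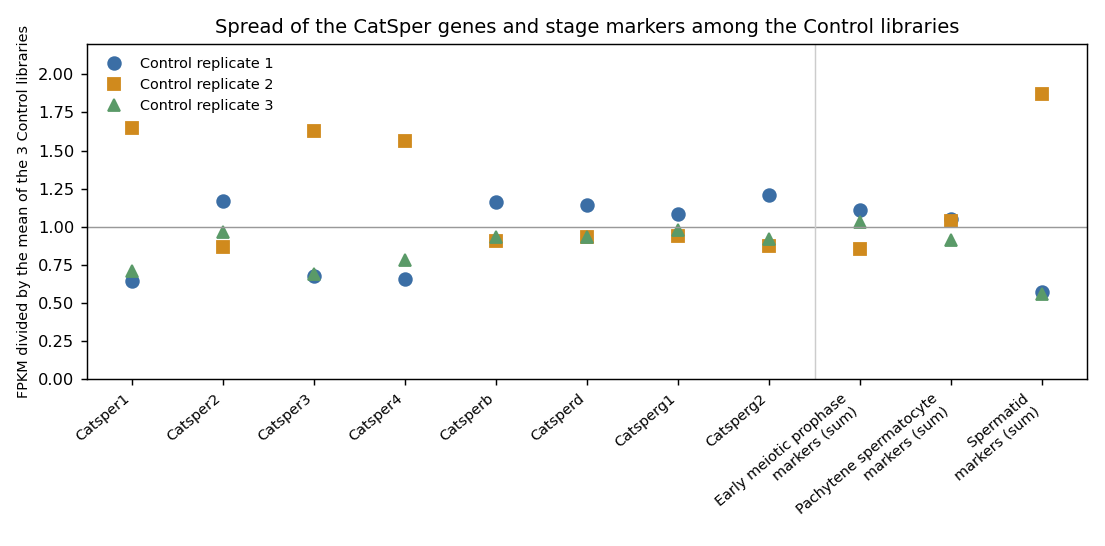
FPKM of each CatSper gene, and the summed FPKM of 3 lists of stage markers, in each Control library, divided by the mean of the 3 Control libraries (vertical axis, a ratio; the grey line is at 1). Control replicate 2 is the highest point for *Catsper1*, *Catsper3*, *Catsper4* and the spermatid markers, while Control replicate 1 is the highest for the other 5 genes.

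Markers of germ cell stages and of somatic cells were measured beside the CatSper genes, where 22.2% of all genes tested were lower and 11.8% were higher. The spermatid and pachytene counts hold markers whose direction was fixed by the filter. These 2 counts are descriptions and are not to be read against the 22.2%. Of 10 spermatid markers all 10 were lower in cKO, with a median fitted change of -6.52, and their summed FPKM was 2500.0 to 8391.1 in Control and 8.80 to 10.7 in cKO, and 7 of the 10 had a cKO mean under 1 FPKM and could only be lower. The protamine gene *Prm2* and the transition protein gene *Tnp2*, which package sperm chromatin, had the largest fitted falls of the list (-9.15 and -9.52 on the log2(FPKM + 1) scale, limma, adjusted p = 1.2e-05 and 1.7e-05). Of 10 pachytene spermatocyte markers 9 were lower (8 by limma-voom), with a median of -2.30 and sums of 765.9 to 879.6 FPKM in Control and 255.4 to 282.2 FPKM in cKO, and 3 of the 9 could only be lower for the same reason. Among them the sperm glycolytic enzyme gene *Pgk2* (-5.85, limma, adjusted p = 2.5e-05) and the sperm surface protein gene *Adam2* (-4.15, limma, adjusted p = 3.4e-06) fell the most, and *Mybl1*, the gene of a MYB factor of spermatocytes, was at 19.1 ± 3.72 and 19.3 ± 3.91 FPKM (SD, n = 3).

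Of 9 early meiotic prophase markers in the table, 1 was lower (*Spo11*, which cuts DNA for recombination, -1.01 ± 0.18 (SE), limma, adjusted p = 0.005), a share below the 22.2% of all genes tested, and the median was -0.03. Of 10 spermatogonial markers 2 were lower (*Id4* at -1.30 and *Dmrtb1* at -1.35, limma, adjusted p = 0.00024 and 0.0003), none was called higher, and the median was 0.12. Their share is near the 22.2% of all genes tested and is no result about the markers. At an unadjusted p under 0.05 another 3 were higher in cKO (*Sohlh1*, *Sohlh2* and *Zbtb16*, at 0.23, 0.31 and 0.50, limma, adjusted p between 0.08 and 0.082), against 18.3% of all genes tested, and limma-voom called 3 higher, against 16.2% of all genes. The cKO libraries of *Gfra1*, *Kit* and *Sohlh1* all lay above their Control libraries, as they did for 21.8% of all genes tested. Of 22 markers of Sertoli, Leydig, peritubular, macrophage and blood cells 11 were tested, of which *Rhox5* was higher (0.72, limma, adjusted p = 0.028), against 11.8% of all genes tested, and none was lower. At an unadjusted p under 0.05, and likewise with limma-voom, 2 of the 11 were higher and none was lower, a share near the 18.3% and 16.2% of all genes tested that were higher by these criteria. At the unadjusted p these were *Rhox5* and the Leydig cell gene *Star* (2.70 ± 0.113 and 3.99 ± 0.765 FPKM in Control and cKO, SD, n = 3, limma, adjusted p = 0.051). The summed FPKM of the 22 was 33.0 to 42.9 in Control and 32.9 to 61.1 in cKO. The 61.1 was in cKO replicate 1, where the 7 Sertoli cell markers summed to 40.8 FPKM, against 15.9 and 22.1 in cKO replicates 2 and 3 and 15.7 to 23.8 in Control. Without cKO replicate 1 all 8 CatSper genes were still called lower. None of the 22 was at 0 in every library. The part of cell make-up in the fall of the CatSper genes was not tested.

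Beyond these 8 genes, 9 other genes of proteins found in or with the CatSper complex were measured, and 8 of them were lower in cKO, with none higher and a median fitted change of -2.60, where 22.2% of all genes tested were lower. *Catspere1*, *Slco6c1*, *Tmem249* and *Tmem262* had a cKO mean under 1 FPKM and passed the filter on low values through Control, so they could only be lower and the count is a description. *Catsperz*, which encodes the zeta subunit, was the most abundant of the 9 in Control, at 69.5, 85.0 and 61.9 FPKM in Control and 1.14, 1.84 and 1.43 FPKM in cKO. Its fitted change was -4.89 ± 0.15 (SE) on the log2(FPKM + 1) scale (limma, adjusted p = 2.7e-06), and 2.04% of its Control level was left. *Slco6c1*, an organic anion transporter found with the complex, was at 9.44, 7.78 and 7.06 FPKM in Control and had no fragment in any cKO library, at least 116.3-fold lower against the limit of 3 fragments per library. *Efcab9*, which encodes the calcium-binding partner of the zeta subunit, was at 7.86, 18.3 and 10.4 FPKM in Control and 2.68, 1.31 and 1.20 FPKM in cKO, and was highest in Control replicate 2.

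*C2cd6*, the tau subunit gene, fell to 29.7% of its Control level and *Trim69*, a ubiquitin ligase gene, to 11.8%. *Tmem249*, with 0, 4 and 5 fragments in cKO, fell to 2.29% and *Tmem262* to 24.6%, and both encode small membrane proteins of the complex. The call of *Tmem262* (-1.20, limma, adjusted p = 0.019) rested on single libraries, because the adjusted p was 0.052 without Control replicate 3, 0.058 without cKO replicate 1 and 0.066 without cKO replicate 3.

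The epsilon subunit has a pair of neighbouring genes on chromosome 1. *Catspere1*, which the annotation of the table calls an unprocessed pseudogene, was at 10.3, 6.11 and 6.98 FPKM in Control and 0.216, 0.0695 and 0.0223 FPKM in cKO (-2.97 ± 0.20 (SE) on the log2(FPKM + 1) scale, limma, adjusted p = 5.8e-05), and the ratio of its pooled fragments was 75.0 (exact 95% interval 44.5 to 137.7, counting error only), or 172.0 without cKO replicate 1. Its neighbour *Catspere2* was at 7.85, 4.94 and 6.09 FPKM in Control and 4.09, 5.32 and 3.98 FPKM in cKO, with groups that overlapped. The gene model of *Catspere2* is short, with 1 coding transcript of 8 exons and 145 residues, where the transcript of *Catspere1* has 19 exons. *Catspere2* was the gene of the 9 that was not called (-0.41 ± 0.17 (SE), limma, adjusted p = 0.12), but it passed at -0.54 with an adjusted p of 0.047 when Control replicate 2 was left out. The difference between the changes of this pair was not tested. Of the 100-base windows in their transcripts, 88.5% of *Catspere1* and 93.4% of *Catspere2* occurred in no other gene.

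**Figure D4:**
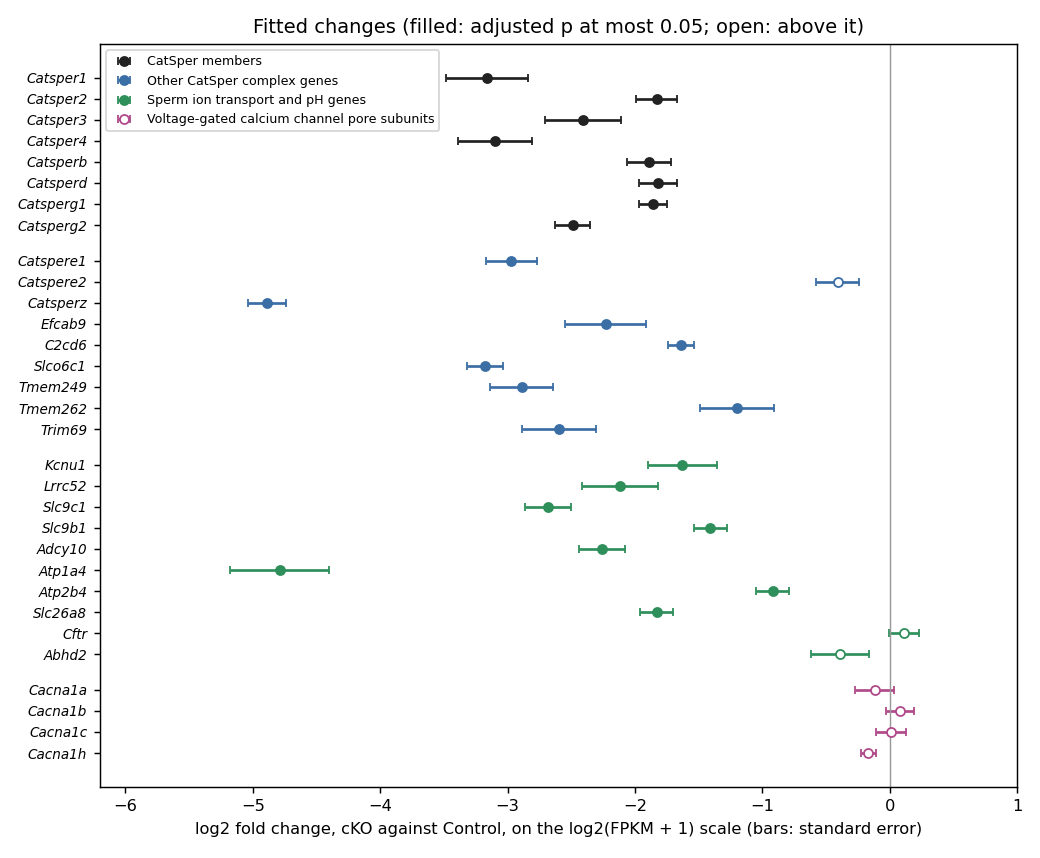
Fitted change in cKO against Control on the log2(FPKM + 1) scale (horizontal axis, bars give the standard error) for the 8 CatSper genes and the tested genes of 3 lists, with filled points for an adjusted p of at most 0.05. The 8 CatSper genes lie between -3.16 and -1.82, *Catsperz* lies at -4.89 and *Atp1a4* at -4.79, while *Catspere2*, *Cftr*, *Abhd2* and the voltage-gated channel genes have open points.

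Other genes listed for ion transport and pH in sperm were lower in 8 of 10 tested, with none higher and a median of -1.73, where 22.2% of all genes tested were lower. Of these 8, 5 had a cKO mean under 1 FPKM and passed the filter through Control, so their direction was fixed by it. *Atp1a4*, the sodium pump subunit of sperm, was at 20.4, 57.8 and 18.9 FPKM in Control and 0.0868, 0.0559 and 0.0359 FPKM in cKO (-4.79 ± 0.39 (SE), limma, adjusted p = 0.00015). Its Control replicate 2 was 2.94 times the mean of the other two. *Slc9c1*, the sperm sodium-proton exchanger, was at 7.0, 4.26 and 5.33 FPKM in Control and had 1 fragment in the 3 cKO libraries together. The ratio of its pooled fragments was 1027.1 (exact 95% interval 184.0 to 40605.4, counting error only), and it was 672.8 without cKO replicate 1 and 684.4 without cKO replicate 3, while no fragment was left without cKO replicate 2. The chloride channel gene *Cftr* was at 2.57 ± 0.171 and 2.87 ± 0.287 FPKM (SD, n = 3) and *Abhd2*, a lipase gene of the response to progesterone, at 6.34 ± 2.53 and 4.41 ± 0.536 FPKM, and neither was called (limma, adjusted p = 0.49 and 0.24). The proton channel gene *Hvcn1* and the exchanger genes *Slc9b2* and *Slc26a3* had means under 1 FPKM and were not tested.

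Of 9 genes that bind or respond to calcium in sperm, 7 were lower and none was higher, with a median of -0.60, where 22.2% of all genes tested were lower. *Ppp3r2* and *Plcz1* had a cKO mean under 1 FPKM and could only be lower. *Ppp3r2*, the testis form of the calcineurin regulatory subunit, was at 29.5, 31.5 and 27.7 FPKM in Control and 0.210, 0.226 and 0.391 FPKM in cKO (-4.58 ± 0.10 (SE), limma, adjusted p = 1.1e-06). *Plcz1*, the phospholipase by which sperm activate the egg, was at 6.48, 19.2 and 8.18 FPKM in Control and had no fragment in cKO. It was at least 143.1-fold lower against the limit of 3 fragments per library, or at least 93.0-fold without Control replicate 2. The calmodulin gene *Calm3* and the kinase gene *Camk4* were not called (-0.18 and -0.46, limma, adjusted p = 0.18 and 0.12). The calls of *Calm2* (-0.36, limma, adjusted p = 0.021) and *Plcd4* (-0.49, limma, adjusted p = 0.02) were each lost when single libraries were left out. The adjusted p of *Calm2* was then 0.073 without Control replicate 1 and 0.085 without cKO replicate 3, and that of *Plcd4* was 0.059 without Control replicate 1, 0.062 without cKO replicate 2 and 0.074 without cKO replicate 3.

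The pore subunits of the classical voltage-gated calcium channels, which share the fold of CatSper1 to CatSper4 but are used across many tissues, were set beside them. Of 10 such genes 4 were tested (*Cacna1a*, *Cacna1b*, *Cacna1c* and *Cacna1h*), none was called by limma or by limma-voom, and the median was -0.05. By limma 22.2% of all genes tested were lower and 11.8% higher, so that few calls among 4 genes say little about them. At an unadjusted p under 0.05, 1 of the 4 was lower (*Cacna1h*), against 26.5% of all genes tested, and under quantile normalisation *Cacna1b* was called higher. *Cacna1h*, the most abundant of the 4 in both groups, was at 19.3, 19.7 and 19.7 FPKM in Control and 17.0, 17.3 and 17.4 FPKM in cKO. These groups did not overlap, but the change of -0.17 ± 0.06 (SE) missed the threshold (limma, adjusted p = 0.073). Over this list and the 3 before it, 23 of 32 genes tested were lower, 9 were not called and none was higher by limma, by limma-voom or at an unadjusted p under 0.05. Of the 23, 11 had a cKO mean under 1 FPKM and could only be lower, so the count describes the lists and is not to be read against the 22.2% of all genes tested.

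The 5 protein-coding genes outside the 8 whose profile over the 6 libraries was nearest to the median profile of the CatSper genes were *K230010J24Rik*, *Pnmal1*, *4931423N10Rik*, *6430531B16Rik* and *4930444P10Rik*. Likeness was measured as the root mean square difference in log2(FPKM + 1) after each gene's own mean was removed, and it was between 0.107 and 0.122 for these 5. *K230010J24Rik*, the nearest, was at 5.73, 5.69 and 5.08 FPKM in Control and 0.494, 0.551 and 0.432 FPKM in cKO. Among the CatSper genes themselves *Catsperb*, *Catsperg2*, *Catsperg1*, *Catsper2* and *Catsperd* lay between 0.202 and 0.247 from that median profile, *Catsper3* at 0.412, *Catsper4* at 0.611 and *Catsper1* at 0.655.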

How the data were processed

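RNA-seq of 6 libraries of mouse STRA8+ testis cells (3 Control, 3 cKO) was analysed. The authors deposited 1 table of FPKM for 54532 genes with gene lengths and coordinates on mm10 (GRCm38). HISAT2 2.0.5 and mm10 are named in the submitters' processing notes, and the counting tool is not given in the sources used here. The libraries were grouped by the labels on genotype.

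For 100% of values above 0 the product of FPKM and gene length was a whole number of equal steps in each library (tolerance 0.01 fragment), so fragments were recovered from the deposited FPKM, with 14447887 to 17310353 per library. The denominator of the FPKM was 0.971 to 1.05 times the sum of these fragments, a factor that the labels do not describe. A count of 0 was taken to allow 3 fragments. Ratios of pooled fragments have exact binomial 95% intervals, and intervals and limits cover counting error only.

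Genes that averaged 1 FPKM or more over the 6 libraries were tested on log2(FPKM + 1) with limma 3.58.1 in R 4.3.3 (lmFit, eBayes with trend) and Benjamini-Hochberg adjustment over all 15451 genes, with a threshold of 0.05. Fitted changes are cKO against Control and understate low genes. The code was tested on simulated data. Summaries used Python 3.11.15, pandas 2.3.3 and scipy 1.17.1. Gene models came from GENCODE M21 and promoter windows from RefSeq (GRCm38.p6). Protein identity was not analysed here.

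The CatSper genes and all lists were chosen with earlier results of these data known. Beside all 8 CatSper genes and *Srsf1*, the genes named are, in each list, the 2 largest falls and the 2 largest rises past the threshold, and genes that bear on a count of 5 or fewer, and the 5 genes of nearest profile. All 9 other complex genes, the 3 untested transport genes, *Calm2*, *Plcd4*, *Pdia3*, *Stra8* and the further spermatogonial and somatic markers were added after their values were seen, as were the CpG counts and the levels by transcript length.

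Alternatives were a pseudocount of 0.1 (for the ratio of *Catsperg2* to *Catsperg1*, 1 FPKM added to both), no filter or a mean of at least 5 FPKM, median of ratios scaling, quantile normalisation, FPKM recomputed from the fragments, eBayes without trend, the replicate number as a block, limma-voom on the fragments, and leaving out each library in turn.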

Additional observations from a re-analysis of the deposited data

How the results depend on the processing

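All 8 CatSper genes were called lower under every alternative in which they were tested. With a mean of at least 5 FPKM, *Catsper1*, *Catsper3*, *Catsper4* and *Catsperb* were not tested, so that 4 CatSper genes were called lower, and 13 of the other listed genes and 1950 of all genes were. The fitted changes of the 8 ranged from -8.88 (*Catsper1*, limma-voom) to -1.34 (*Catsperb*). Over the listed genes of the 4 other lists, 447 comparisons with an alternative kept direction and side of the threshold, 11 lost the call, 3 gained it and 4 changed sign. Quantile normalisation moved the median change of all genes to 0.215 and called 5164 genes higher, among them 2 listed genes, *Cftr* (0.44, limma, adjusted p = 0.029) and *Cacna1b* (0.38, limma, adjusted p = 0.031), and it turned *Cacna1a* to 0.21 (adjusted p = 0.26). With 1 library left out, *Cacna1b* ranged from -0.02 (without cKO replicate 1) to 0.14 and *Cacna1c* from -0.04 (without cKO replicate 1) to 0.04, with -0.01 without Control replicate 1, and neither was called. *Calm2* lost its call without a filter (adjusted p = 0.056) and *Plcd4* under quantile normalisation (adjusted p = 0.23).

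Leaving out 1 library gave 2693 to 3510 genes lower and 969 to 1767 higher. The latter count was 1068 without Control replicate 1, 1079 without Control replicate 3, 1172 without cKO replicate 1 and 969 without cKO replicate 3.

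No pairing of the libraries by replicate number, 1 to 3 in both groups, was seen. Deviations of same-numbered libraries correlated at -0.00138, -0.111 and 0.0161, and those of different-numbered libraries at -0.155 to 0.135. With 3 libraries per group such correlations cannot exclude a pairing. With the replicate number as a block, 2870 genes were lower, 891 were higher and all 8 CatSper genes were lower. *Plcd4* lost its call (adjusted p = 0.063). The cause of these changes was not tested. Rescaled to the length of the coding transcript, an alternative chosen after seeing the data, *Catsperg1*, *Catsperg2* and *Catsperd* took places 2, 3 and 4 by level in Control, and *Catsperg1* and *Catsperd* places 2 and 3 in cKO, with no other place changed. Depth limits the cKO values of *Catsper3*, *Catsper4* and *Catsperb* in single libraries, which rest on as few as 1, 2 and 3 fragments.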
